A study of Mus musculus with 2 samples.

Results

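The genes described here are the CDK inhibitors and the retinoblastoma family in mouse megakaryocyte-erythroid progenitors (MEP), the bone marrow cells that give rise to red cells and platelets. They were chosen by symbol, as members of these families, and none was chosen by its level: Cdkn1a, Cdkn1b and Cdkn1c (CIP/KIP inhibitors), Cdkn2a, Cdkn2b, Cdkn2c and Cdkn2d (INK4 inhibitors), and Rb1, Rbl1 and Rbl2 (pocket proteins). All 10 were matched by gene identifier, out of 42462 genes whose symbol was found. The study sequenced total RNA longer than 200 bases, with spike-in RNAs, from 2 libraries of 100 primary MEP each, taken from adult male C57BL/6J mice aged 5 to 6 weeks. The labels name no treatment or modified allele and no second group. Both libraries form 1 group with nothing to compare it with, so no test between conditions was possible. The labels number them as biological replicates 1 and 2, from separate biosamples with the same donor record, and do not say whether they came from separate mice, so part of the spread may be technical.

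Cyclin-dependent kinases (CDKs) drive the cell cycle when bound by cyclins, and CDK inhibitors hold them back. INK4 proteins bind Cdk4 and Cdk6 and keep D cyclins away from them, whereas CIP/KIP proteins bind whole cyclin-CDK complexes, above all those of Cdk2. Pocket proteins bind E2F factors and repress the genes of DNA replication until CDKs phosphorylate them. In blood formation these proteins are known for holding stem cells at rest and for the arrest of red cell precursors in their last divisions.

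Sequencing gave 30016974 expected counts in replicate 1 and 51510347 in replicate 2. Protein-coding nuclear genes held 13518448 and 25799923 of them, and the 10 genes 6536 and 12762. Among marker genes, 9 of 11 of the erythroid list reached 10 TPM in both libraries (transcript abundance per length, scaled to a fixed sum in each library), with Car1 at 1941 and 2286 TPM. The late erythroid genes Alas2 (0.88 and 0.07 TPM) and Slc4a1 (0.18 and 0.21 TPM) were low. Of 8 megakaryocyte markers 1 reached 10 TPM, Itga2b, while Ppbp had no count in either library and Pf4 had 0 and 0.49 TPM. Of 8 T and NK cell markers 1 reached 10 TPM in both libraries, Nkg7 (23 and 19.24 TPM), and the list summed to 50.27 and 37.89 TPM. Among these markers only Cd3g was over 2-fold apart, higher in replicate 1 (12.59 and 1.1 TPM). The libraries stood further apart in markers of granulocytes and monocytes and of B cells. Of 12 granulocyte and monocyte markers, 11 were over 2-fold higher in replicate 1, where the list summed to 1890 TPM against 8.22 TPM in replicate 2, and Ngp, Ltf, Lcn2, Mpo, Elane and Itgam had no count in replicate 2. Of 8 B cell markers, 7 were over 2-fold higher in replicate 2, where the list summed to 126.9 TPM against 7.55 TPM, and Vpreb1 had no count in replicate 1. Each value below is therefore given for each library. Over 11355 genes with a mean of at least 1 TPM, the median difference on the log2(TPM + 1) scale, replicate 2 minus replicate 1, was 0.18 (SD 0.80), and differences of the genes below are also given relative to that median.

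Pocket protein transcripts were the most abundant of the 3 families, at a summed 66.59 and 89.04 TPM in replicates 1 and 2. The INK4 family summed to 14.75 and 14.91 TPM and the CIP/KIP family to 10 and 11.36 TPM. Within each inhibitor family 1 gene carried most of the transcripts. Cdkn1b made up 91.3% and 70.7% of the CIP/KIP sum, and Cdkn2c made up 81.8% and 79.3% of the INK4 sum. The pocket proteins shared theirs, with Rbl1 leading in replicate 1 at 47.2% and Rbl2 leading in replicate 2 at 34.8%.

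**Figure D1:**
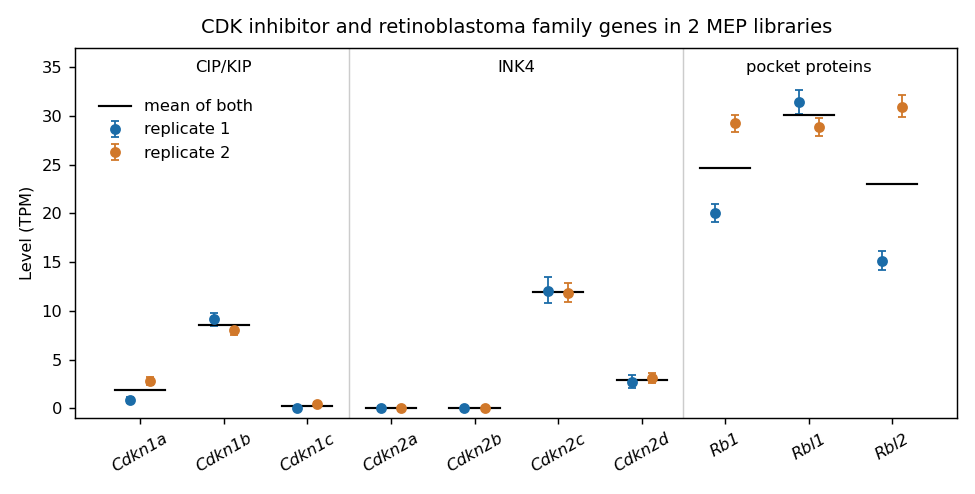
TPM of each gene (vertical axis) in replicate 1 and replicate 2, with exact Poisson intervals at 95% of the counts as error bars and the mean of both libraries as a black line. Rb1, Rbl1 and Rbl2 lie between 15.14 and 31.42 TPM, Cdkn2c and Cdkn1b between 8.03 and 12.06 TPM, and the other 5 genes below 3.1 TPM.

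Of the 10 genes, 4 reached 10 TPM in both libraries: Rb1, Rbl1, Rbl2 and Cdkn2c. Across protein-coding nuclear genes this share was 24.7% (5308 of 21461). Cdkn2a and Cdkn2b had no count in either library, against 39.9% of protein-coding nuclear genes. The counts of all 10 genes were whole, with a deposited posterior standard deviation of 0, so no read was shared with another gene in the authors' estimate.

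Among the CIP/KIP inhibitors, Cdkn1b (ENSMUSG00000003031.10; mm10 chromosome 6, 134920401 to 134925513, plus strand) encodes p27, which holds Cdk2 in check in resting cells. The 725 counts of replicate 1 gave 9.13 TPM, and the 1103 counts of replicate 2 gave 8.03 TPM (mean 8.58 ± 0.778, SD, n = 2). The level in replicate 2 was 0.880 times that in replicate 1 (exact Clopper-Pearson interval at 95%, 0.8 to 0.967, which leaves out equal levels). On the log2 scale the difference was -0.17, or -0.35 relative to the median gene. Both libraries placed the gene close to the same level, at the percentiles 72.9 and 69.3 of protein-coding nuclear genes. Such intervals, here and below, cover counting error only, since reads without molecular identifiers are not independent molecules. They also take as fixed the assignment of reads to transcripts and the effective length it gives each gene.

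The 2 coding transcripts of Cdkn1b start at the same base and share a coding sequence of 591 bases, so they differ only outside it. The longer, Cdkn1b-202 (4552 bases), held 5.74 and 4.95 TPM, and the shorter, Cdkn1b-201 (2393 bases), held 3.38 and 3.08 TPM. The longer form thus made 62.9% and 61.6% of the gene's TPM, nearly the same split in both libraries.

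Cdkn1a (ENSMUSG00000023067.9; chromosome 17, 29090976 to 29100727, plus strand) encodes p21, the inhibitor that p53 induces after DNA damage. It was low, at 0.87 TPM in replicate 1 from 34 counts and 2.84 TPM in replicate 2 from 191 counts (mean 1.86 ± 1.39, SD, n = 2). The level in replicate 2 was 3.26 times that in replicate 1 (exact interval 2.26 to 4.85), so the difference exceeded counting error. On the log2(TPM + 1) scale it was 1.04, or 0.86 relative to the median gene. Of the 7 genes with a mean of at least 1 TPM, only Cdkn1a was past 2-fold on that scale, against 11.1% of all 11355 such genes (1263). Of these, 781 were higher in replicate 2 (6.88%) and 482 in replicate 1 (4.24%). That split depended on scaling, with 723 against 701 after TPM were rescaled over protein-coding nuclear genes, 352 against 356 with TMM factors and 726 against 742 with DESeq2 size factors. In such bulk samples more cells of a type and more RNA per cell cannot be told apart. The B cell markers moved the same way as Cdkn1a and the granulocyte and monocyte markers the opposite way, with the sums given above, and their part in this result was not tested.

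All counts of Cdkn1a were assigned to Cdkn1a-201, which starts at 29093769. Cdkn1a-202, which starts upstream at 29090979, and Cdkn1a-203 had no count, and all 3 encode the same 477 bases of coding sequence. The authors' upper bounds for Cdkn1a-202 were 0.266 TPM in replicate 1 and 0.581 TPM in replicate 2, so a low level from its start was not excluded. The stretches before the starts differ in the motifs that a search of RefSeq promoter windows found (GRCm38.p6, from 250 bases before to 50 bases after a start). The stretch before the start assigned no count (chr17:29090729-29090975, plus strand) holds p53 half-sites. It is shown with that of the leading inhibitor of the family, Cdkn1b (chr6:134920151-134920400, plus strand), which holds a GC box. Capitals mark these matches.
Cdkn1a-202: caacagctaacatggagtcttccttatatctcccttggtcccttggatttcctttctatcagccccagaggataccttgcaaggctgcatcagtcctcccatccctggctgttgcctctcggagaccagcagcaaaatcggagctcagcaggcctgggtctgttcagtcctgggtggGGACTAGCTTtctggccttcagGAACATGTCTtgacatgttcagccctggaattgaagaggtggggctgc
Cdkn1b: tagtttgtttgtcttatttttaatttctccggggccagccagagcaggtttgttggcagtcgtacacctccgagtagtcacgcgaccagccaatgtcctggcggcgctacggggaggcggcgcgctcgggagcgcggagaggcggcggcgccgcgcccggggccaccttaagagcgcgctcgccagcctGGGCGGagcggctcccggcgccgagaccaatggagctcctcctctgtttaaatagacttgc
The upstream Cdkn1a window held 2 p53 half-sites, which 8.36% of all 32851 windows held at least once, and no GC box (GGGCGG on either strand). The window of the start to which the counts were assigned, that of Cdkn1a-201, held no half-site and 2 GC boxes. Sequence outside the windows was not searched. The GC content of the Cdkn1a-201 window was 64.7% against 54.7% upstream. Its ratio of observed to expected CpG was 0.786 against 0.0893 (median of all windows 52.7% and 0.384). A match is a description of the letters and not a bound site.

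Cdkn1c (ENSMUSG00000037664.8; chromosome 7, 143458339 to 143461050, minus strand), an imprinted gene, encodes p57, which is known for keeping blood stem cells quiescent. It had no count in replicate 1, where 3 counts would be 0.0769 TPM, and 33 counts or 0.49 TPM in replicate 2. The level in replicate 2 was 6.37 times that floor, a ratio that leaves out the counting error of replicate 2. The exact Poisson intervals of the libraries did not overlap. The upper limit was 0.0945 TPM in replicate 1 and the lower limit 0.3405 TPM in replicate 2. All 33 counts were assigned to Cdkn1c-201, but the authors' bounds for Cdkn1c-201 (8.93e-06 to 0.538 TPM) and Cdkn1c-202 (2.06e-05 to 0.501 TPM) overlapped, so the forms could not be separated. RefSeq promoter entries were matched for 8 of the 10 genes, not for Cdkn1c or Rb1.

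Among the INK4 inhibitors, Cdkn2c was the abundant member and Cdkn2d a minor one, and neither differed between libraries beyond counting error. Cdkn2c (ENSMUSG00000028551.10; chromosome 4, 109660876 to 109667189, minus strand) encodes p18. From 317 counts in replicate 1 it had 12.06 TPM, and from 582 counts in replicate 2 it had 11.82 TPM (mean 11.94 ± 0.170, SD, n = 2). The ratio of replicate 2 to replicate 1 was 0.980 (exact interval 0.853 to 1.13), and the log2 difference was -0.03, or -0.21 relative to the median gene.

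Cdkn2c has 2 starts. Cdkn2c-201, which starts at 109665372 and has 2 exons, held 10.06 and 8.92 TPM, and Cdkn2c-202, which starts at 109667189 and has 3 exons, held 2.00 and 2.90 TPM. Both encode the same 504 coding bases. By TPM the downstream start made 83.4% and 75.5% of the gene, but by counts 67.7% and 55.6%, because Cdkn2c-202 is longer (2471 against 1106 bases). The authors' bounds for the 2 forms did not overlap in either library, at 8.29 to 11.1 against 1.51 to 2.38 TPM in replicate 1 and 7.58 to 9.72 against 2.41 to 3.22 TPM in replicate 2. The window at the downstream start had a GC content of 44% and no GC box, whereas the upstream window, whose RefSeq start lies 433 bases inside Cdkn2c-202, had 73.3% and 4 GC boxes.

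Cdkn2d (ENSMUSG00000096472.1; chromosome 9, 21288410 to 21291407, minus strand) encodes p19 of the INK4 family, which is distinct from p19Arf. It had 2.69 TPM in replicate 1 from 67 counts and 3.09 TPM in replicate 2 from 132 counts (mean 2.89 ± 0.283, SD, n = 2). The ratio was 1.15 (exact interval 0.850 to 1.57), which includes equal levels. The log2 difference of 0.15 lay -0.03 from the median gene, and its sign changed with TMM factors (-0.0027) and DESeq2 size factors (-0.0039).

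Cdkn2a (ENSMUSG00000044303.6; chromosome 4, 89274471 to 89294653, minus strand) and Cdkn2b (ENSMUSG00000073802.4; chromosome 4, 89306299 to 89311039, minus strand) lie side by side and had no count in either library. Cdkn2a encodes p16 and, from another start and reading frame, p19Arf, which frees p53 from Mdm2, while Cdkn2b encodes p15. By the limit of 3 counts set here for a count of 0, up to 0.185 and 0.110 TPM remain possible for Cdkn2a in replicates 1 and 2. For Cdkn2b the values are 0.109 and 0.0633 TPM. The upper limits of the exact Poisson intervals were higher, at 0.228 and 0.135 TPM for Cdkn2a and 0.134 and 0.0778 TPM for Cdkn2b. Their RNA was thus not detectable at this depth. Both starts of Cdkn2a were at 0, Cdkn2a-201 for p16 at 89282192 and Cdkn2a-202 for p19Arf at 89294653. Of the neighbouring genes, Mtap, an enzyme of methionine salvage, stood at 13.03 and 14.56 TPM, and Dmrta1 had no count.

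The start of p19Arf is 1 of 2 among the 11 windows of these genes that hold an E2F word (TTTCCCGC, TTTCGCGC, TTTGCCGC or TTTGGCGC on either strand), which 2.26% of all windows held. The other is that of Rbl1. The stretches before both starts are shown, Cdkn2a-202 at chr4:89294654-89294869 and Rbl1 at chr2:157204535-157204784, both on the minus strand, because they share the motif and lie at opposite ends of the order of levels. Capitals mark the E2F words and GC boxes.
Cdkn2a-202: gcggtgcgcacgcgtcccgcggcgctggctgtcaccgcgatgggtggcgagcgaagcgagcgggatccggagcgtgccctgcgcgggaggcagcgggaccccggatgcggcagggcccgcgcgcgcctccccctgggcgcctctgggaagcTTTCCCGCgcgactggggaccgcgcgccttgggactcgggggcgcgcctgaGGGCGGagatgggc
Rbl1: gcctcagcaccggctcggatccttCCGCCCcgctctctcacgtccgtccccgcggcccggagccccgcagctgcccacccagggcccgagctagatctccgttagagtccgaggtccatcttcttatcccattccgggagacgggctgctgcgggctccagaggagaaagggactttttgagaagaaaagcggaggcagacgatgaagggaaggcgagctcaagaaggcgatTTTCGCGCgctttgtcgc
The word of the p19Arf start, TTTCCCGC, begins 99 bases before the RefSeq start, and that of Rbl1, TTTCGCGC, begins 18 bases before its RefSeq start. That Rbl1 start is the start of Rbl1-204, a retained-intron form, at 157204534, whereas the coding Rbl1-201 starts at 157204512. The p19Arf window had a GC content of 77.0% and the Rbl1 window 64.0%. GC boxes occurred in 9 of the 11 windows against 35.7% of all windows, and TATAAA in none against 13.6%.

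Polycomb proteins are known to repress the Cdkn2a and Cdkn2b genes. Of 10 genes that encode them, 5 reached 10 TPM in both libraries, against 24.7% of protein-coding nuclear genes: Ezh2 (85.46 and 107.42 TPM), Suz12 (53.56 and 63.53 TPM), Eed (19.25 and 26.59 TPM), Bmi1 (18.60 and 14.25 TPM) and Rnf2 (13.65 and 15.26 TPM). The first 3 belong to the complex that methylates histone H3, and Bmi1 and Rnf2 to the one that ubiquitinates histone H2A. Cbx8 was lowest, at 0.91 and 0.59 TPM. Pcgf2 was over 2-fold higher in replicate 2 (2.87 and 8.96 TPM).

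Over all transcripts the 3 pocket proteins stood at similar mean levels, and Rbl2 differed most between the libraries in TPM. Over the coding transcripts alone the means lay further apart, at 21.98 TPM for Rb1, 16.61 TPM for Rbl1 and 10.48 TPM for Rbl2. Rbl1 (ENSMUSG00000027641.9; chromosome 2, 157145893 to 157204534, minus strand) encodes p107, the pocket protein typical of dividing cells. It had 31.42 TPM in replicate 1 from 2446 counts and 28.83 TPM in replicate 2 from 3607 counts (mean 30.12 ± 1.83, SD, n = 2), a ratio of 0.918 (exact interval 0.871 to 0.966). The log2 difference was -0.12, or -0.30 relative to the median gene, and -0.42 with TMM factors and no length correction.

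Rb1 (ENSMUSG00000022105.6; chromosome 14, 73183673 to 73325822, minus strand) encodes pRB, the tumour suppressor that restrains the activating E2F factors. Its 1989 counts in replicate 1 amounted to 20.03 TPM and its 4264 counts in replicate 2 to 29.25 TPM (mean 24.64 ± 6.52, SD, n = 2), which lay apart beyond counting error. Rcbtb2 (326 and 607 counts) and Lpar6 (91 and 72 counts) overlap Rb1 on the opposite strand, and their part in its counts was not tested. The ratio was 1.46 (exact interval 1.38 to 1.54) over all transcripts and 1.195 over the coding transcript, outside that interval. The effective length of Rb1 was 4520 bases in replicate 1 and 3774 in replicate 2. Over all transcripts the log2 difference was 0.52, or 0.345 relative to the median gene, and 0.12 with TMM factors and no length correction.

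Rbl2 (ENSMUSG00000031666.10; chromosome 8, 91070057 to 91123844, plus strand) encodes p130, the pocket protein typical of resting cells. Its level was 15.14 TPM in replicate 1 from 958 counts and 30.96 TPM in replicate 2 from 2850 counts (mean 23.05 ± 11.19, SD, n = 2). The ratio was 2.05 (exact interval 1.90 to 2.20). On the log2(TPM + 1) scale the difference was 0.99, or 0.81 relative to the median gene, just under the 2-fold line that Cdkn1a passed at 1.04. It was 0.58 with TMM factors and 0.61 over the coding transcript alone. As for Cdkn1a, the B cell markers were higher in the same library, and their part was not tested.

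**Figure D2:**
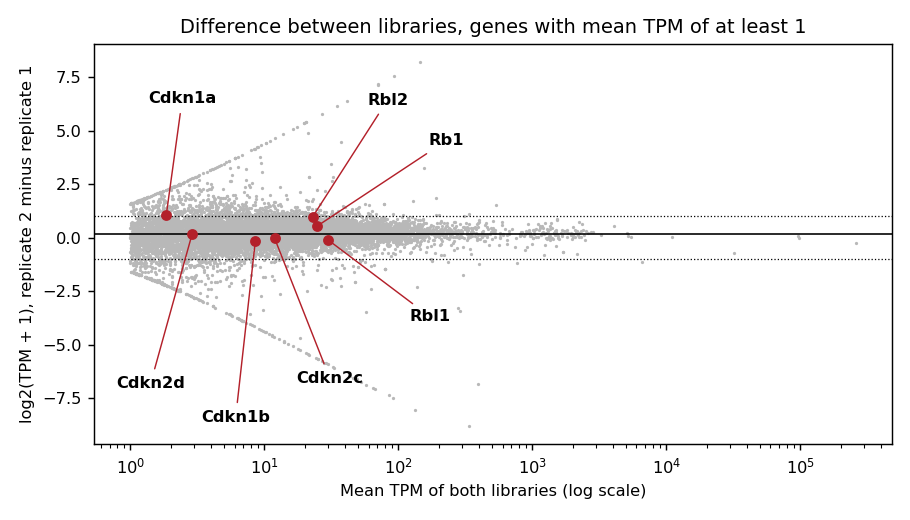
Difference between libraries on the log2(TPM + 1) scale (vertical axis, replicate 2 minus replicate 1) against the mean TPM (horizontal, log scale) for the 11355 genes with a mean of at least 1 TPM, in grey, with 7 of the 10 genes in red. The solid line is the median of 0.18 and the dotted lines mark 2-fold; Cdkn1a at 1.04 lies just past the upper one and Rbl2 at 0.99 just below it.

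Much of the pocket protein RNA was assigned to transcripts other than the coding one, mostly annotated retained-intron forms. These keep part of an intron, have no annotated coding sequence and are short. Reads of unspliced RNA, which total RNA can hold, were not told apart from these forms. The coding transcripts summed to 45.82 and 52.31 TPM and the others to 20.78 and 36.73 TPM. For Rbl1 the other transcripts took 43.6% and 46.2% of TPM but 24.8% and 22.1% of counts. For Rbl2 they took 46.7% and 58.4% of TPM but 11.4% and 16.9% of counts. A short transcript gets more TPM per read, so the 2 shares differ. For Rb1 they took 0% and 18.2% of TPM and 0% and 2.66% of counts. Retained-intron forms held at least 20% of a gene's TPM in both libraries for Rbl1 and Rbl2, and for 31.7% of 4303 protein-coding nuclear genes with such a form. The median over those genes was 16.3% and 15.3%. All annotated transcripts of the CDK inhibitors are protein-coding, so the annotation allows no such share for them.

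**Figure D3:**
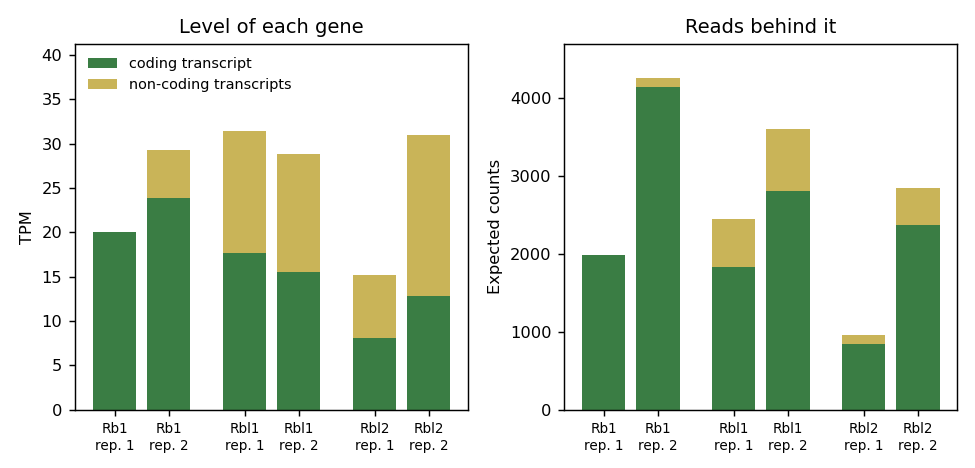
Level in TPM (left) and expected counts (right) of Rb1, Rbl1 and Rbl2 in each library (rep. 1 and rep. 2), split into the coding transcript (green) and all transcripts not annotated as protein-coding (yellow). The yellow part of Rbl2 in replicate 2 is 58.4% of its TPM and 16.9% of its counts.

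Rbl1-201, the coding transcript of 22 exons, held 17.72 and 15.50 TPM. Rbl1-202, which runs from the start into intron 13, held 6.61 and 7.73 TPM from 326 and 662 counts. Rbl1-203, which keeps part of intron 8, held 2.57 and 4.99 TPM. Rbl1-204, which ends in intron 16, held 4.53 and 0.61 TPM, and its bounds did not overlap between libraries (3.18 to 5.54 and 0.271 to 1.02 TPM).

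For Rbl2 the form with the highest TPM differed between the libraries, but in replicate 2 the lead was within the authors' bounds. Rbl2-201, the coding transcript of 22 exons, held 8.07 and 12.88 TPM, or 53.3% and 41.6% of the gene. Rbl2-207, a form of 821 bases that begins in intron 17, held 3.89 and 13.91 TPM, or 25.7% and 44.9%, from 58.6 and 352 counts. The bounds of Rbl2-207 were 2.52 to 4.99 TPM in replicate 1 and 11.8 to 15.1 TPM in replicate 2, and did not overlap. Those of Rbl2-201 were 7.18 to 8.24 TPM in replicate 1, above those of Rbl2-207, and 11.97 to 13 TPM in replicate 2, where they overlapped them. Rbl2-203, which begins in intron 18, held 2.82 and 1.64 TPM. By expected counts the coding transcript led in both libraries, with 88.7% and 83.1%. Of the 6 genes with several transcripts and counts in both libraries, 5 kept the same leading transcript, all but Rbl2, against 68.2% of 7421 protein-coding nuclear genes. The gene Aktip, on the opposite strand, overlaps this end of Rbl2 and had 97 counts in replicate 1 and 68 in replicate 2, and its part in the counts of Rbl2-207 was not tested.

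The joins at which Rbl1-202 and Rbl2-207 depart from the coding transcripts are given over 40 bases, 20 on each side, from the GENCODE M21 transcripts. A read across such a join tells the retained form from the coding one, but reads within shared exons do not. The spliced join of Rbl1-201 is also in Rbl1-204, and that of Rbl2-201 also in Rbl2-205 and Rbl2-206. Capitals mark the intron bases. Rbl1-202 reads on from exon 13, whose last base is 157175528 of chromosome 2, into 542 of the 620 bases of intron 13. Rbl2-207 begins in the last 275 of the 5283 bases of intron 17 and reads into exon 18, whose first base is 91112518 of chromosome 8.
Rbl1-202: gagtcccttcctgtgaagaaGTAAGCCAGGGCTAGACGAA
Rbl1-201: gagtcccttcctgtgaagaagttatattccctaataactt
Rbl2-207: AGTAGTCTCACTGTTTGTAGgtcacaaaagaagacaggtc
Rbl2-201: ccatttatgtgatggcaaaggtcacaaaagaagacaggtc

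**Figure D4:**
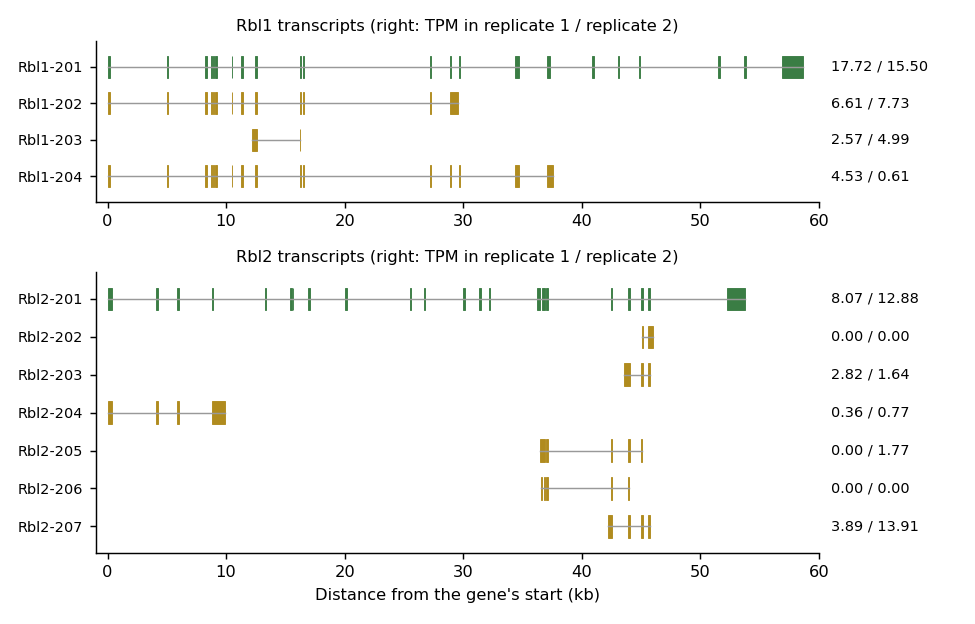
Annotated transcripts of Rbl1 and Rbl2, drawn by distance from the gene's start in kb (horizontal axis), with exons as boxes (the outline widens the shortest slightly), introns as lines, coding transcripts in green and others in brown, and TPM in replicate 1 and 2 at the right. Rbl2-207, at 3.89 and 13.91 TPM, covers only 4 exons near the end of the gene.

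Rb1 in replicate 1 was assigned wholly to the coding transcript Rb1-201 of 27 exons, at 20.03 TPM, and in replicate 2 for 81.8%, at 23.93 TPM. Rb1-204, which keeps part of intron 23, held 3.26 TPM from 98.4 counts in replicate 2 and none in replicate 1, where its upper bound was 0.318 TPM. Rb1-205, with part of intron 17, held 2.05 TPM from 15.2 counts in replicate 2. Over the coding transcript alone Rb1 was at 21.98 ± 2.76 TPM (SD, n = 2), with a log2 difference of 0.25 between libraries.

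In order of mean level the genes ran Rbl1, Rb1, Rbl2, Cdkn2c, Cdkn1b, Cdkn2d, Cdkn1a, Cdkn1c, with Cdkn2a and Cdkn2b at 0. The values of the 2 libraries overlapped between Rbl1 and Rb1, between Rb1 and Rbl2, between Cdkn2d and Cdkn1a, and between Cdkn1c and the undetected genes, so these neighbours were not ordered beyond their spread. Rbl2 stood apart from Cdkn2c, Cdkn2c from Cdkn1b and Cdkn1b from Cdkn2d. Over coding transcripts alone, a choice made after seeing the data, the order at the top was Rb1 (21.98 TPM), Rbl1 (16.61 TPM), Cdkn2c (11.94 TPM), Rbl2 (10.48 TPM) and Cdkn1b (8.58 TPM). There Rb1 stood apart from Rbl1, and Rbl2 overlapped both Cdkn2c and Cdkn1b.

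Levels of the partners of these proteins ranged widely. Of 90 other genes of the pathway lists, which include the INK4 locus neighbours Mtap and Dmrta1, 65 reached 10 TPM in both libraries (72.2%). This compares with 24.7% of protein-coding nuclear genes. Median levels of the 90 were 24.3 and 29.6 TPM. Among them, 3 were over 2-fold higher in replicate 2 (Pcgf2, E2f5 and Phlda3), or 3.33%, against 6.88% of all genes with a mean of at least 1 TPM. That filter was not applied to the 90, which include genes without a count, so the shares have unlike bases. None of the 90 was over 2-fold higher in replicate 1, against 4.24% of the filtered genes, and the split over all genes depended on scaling as given above. Of the targets of INK4 proteins, Cdk4 stood at 270.00 and 357.15 TPM and Cdk6 at 80.88 and 81.70 TPM. Their sum was 23.8 and 29.4 times the INK4 sum. Among the D cyclins that activate them, Ccnd3 had 65.19 and 79.77 TPM, Ccnd2 23.40 and 16.30 TPM, and Ccnd1 1.63 and 1.77 TPM, so 4 of 5 genes of this list reached 10 TPM in both libraries.

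Of the E and A cyclins and their kinases, which CIP/KIP proteins inhibit, 5 of 6 reached 10 TPM in both libraries. Ccna2 was highest at 68.69 and 94.58 TPM, followed by Ccne1 at 46.04 and 60.50 TPM, Cdk1 at 51.65 and 48.04 TPM, Cdk2 at 19.85 and 36.02 TPM and Ccne2 at 15.38 and 23.18 TPM. The sixth gene, Ccna1, the A cyclin of germ cells, had no count. Cdk2 and Cdk1 together were 7.15 and 7.40 times the CIP/KIP sum. All 10 genes listed for the turnover of CDK inhibitors reached 10 TPM in both libraries. They included Skp2, the F-box protein that marks p27 for destruction, the lowest at 12.78 and 14.40 TPM, and its cofactor Cks1b at 76.72 and 111.4 TPM. Ddb1, of the ligase that destroys p21 in S phase, had 101.3 and 93.73 TPM.

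Of 10 E2F and DP factors, 6 reached 10 TPM in both libraries. E2f4, the repressive partner of p107 and p130, led at 131.93 and 153.86 TPM, and Tfdp1, the dimer partner of E2F factors, had 102.9 and 111.4 TPM. The lowest was E2f5 at 2.02 and 6.70 TPM, from 73 and 410 counts. The pocket protein sum was 0.421 and 0.469 times that of E2f1 to E2f5, and 2.53 and 2.46 times that of these factors without E2f4. That sum includes 20.78 and 36.73 TPM of transcripts not annotated as protein-coding, beside 45.82 and 52.31 TPM of coding ones. The E2F sums were not split in this way. Such ratios, and those to the INK4 and CIP/KIP sums above, compare RNA and not protein. Of 5 genes of the MuvB core, which joins p130 in the complex that silences genes in resting cells, 3 reached 10 TPM in both libraries: Rbbp4 (77.96 and 59.76 TPM), Lin37 (25.29 and 21.54 TPM) and Lin54 (16.92 and 21.16 TPM). Lin52, which holds the MuvB core to p130, was the lowest at 6.94 and 7.24 TPM. All 9 corepressors of pocket proteins reached 10 TPM, from Arid4a (14.90 and 11.02 TPM) to Hdac2 (63.73 and 81.03 TPM) and Rbbp7 (97.99 and 108 TPM).

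Of 8 phosphatases and regulators of pRB, 5 reached 10 TPM in both libraries, led by the phosphatase subunits Ppp1cc (164.2 and 187.3 TPM) and Ppp1ca (153.2 and 165 TPM). The others were Ppp1cb (35.79 and 30.62 TPM), Ccnh of the CDK-activating kinase (22.49 and 38.49 TPM) and the CDK phosphatase Cdc25a (19.36 and 22.19 TPM), while Cables1 was lowest at 0.36 and 0.89 TPM. Of 12 genes that E2F factors drive, 11 reached 10 TPM in both libraries. Pcna, the sliding clamp of DNA polymerase, had 298.67 and 352.13 TPM, and Tk1, a thymidine kinase, 79.41 and 125.3 TPM.

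Of 14 genes listed for p53 and its targets, 7 reached 10 TPM in both libraries. Trp53 itself stood at 118.61 and 164.04 TPM, and Mdm4, which restrains it, at 78.44 and 59.45 TPM. The proapoptotic target Pmaip1 had no count in either library. Phlda3, another target, was over 2-fold higher in replicate 2 (0.74 and 3.59 TPM, from 7 and 176 counts). Of the 14 genes, 7 were higher in replicate 2, 6 lower and 1 at 0 in both, with a median log2 difference of 0.06.

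**Figure D5:**
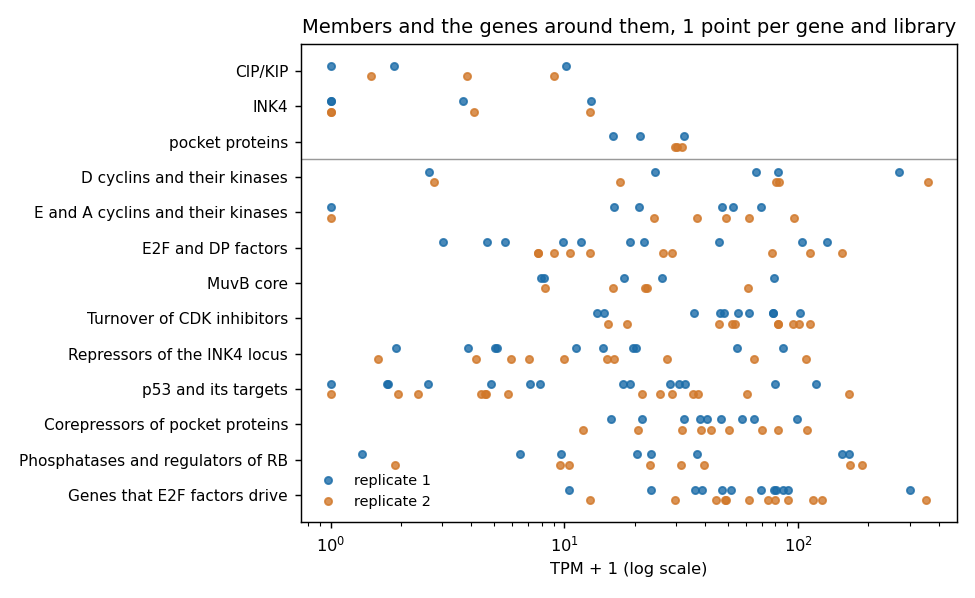
TPM + 1 (horizontal axis, log scale) of every gene of the 3 families and of each pathway list except the neighbours of the INK4 genes, 1 point per gene in replicate 1 and in replicate 2. Both CDK inhibitor families lie at or below 12.06 TPM, whereas Cdk4, of the D cyclin list, reaches 357.15 TPM.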

How the data were processed

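Total RNA longer than 200 bases from 2 libraries of 100 MEP was measured by sequencing, with spike-ins, per the labels. The authors quantified genes and transcripts on mm10 with GENCODE M4, per the file headers of the notes beside the tables. Which aligner and quantifier were run is not given in the sources used here. Since no source says whether counting used strand, reads of overlapping genes on opposite strands could not be told apart. The authors estimated how many reads or fragments came from each gene and transcript and deposited these expected counts. The deposited TPM were corrected by the authors for effective length and sum over 69691 features, ribosomal RNA included. The authors also deposited credibility bounds of TPM, used here as a signal, and each transcript's percent share of its gene.

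GENCODE M21 (GRCm38, the same assembly as mm10) supplied symbols, biotypes and positions by identifier. Of the 30 transcripts of the 10 genes, 7 differ in length between the deposited table and M21. Promoter windows came from RefSeq on GRCm38.p6. The members were set by symbol and not by their values, but they and the lists were chosen with earlier results of these data known. All 10 genes were named, and of each list the 2 highest and the lowest by mean TPM, genes beside counts of 5 or fewer, leading transcripts, and transcripts at 10% of a gene in either library. Marker genes were picked for naming with their values in view. A gene that this rule takes is not reported here.

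Levels are the mean ± SD of both libraries. Differences are replicate 2 minus replicate 1 on log2(TPM + 1), which understates the change of low genes, and "past 2-fold" means over 1 on that scale. Ratios of TPM carry exact Clopper-Pearson intervals at 95% and levels exact Poisson intervals, from rounded expected counts. The limit for a count of 0 is 3 counts. No p-value was computed. As alternatives, rounded expected counts were scaled with TMM factors (edgeR 4.0.16) and with size factors (DESeq2 1.42.0) under R 4.3.3. Other steps used Python 3.11.15, numpy 2.4.6, pandas 2.3.3, scipy 1.17.1 and matplotlib 3.10.9. The calculation of differences and of Poisson intervals was tested on simulated data.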

Additional observations from a re-analysis of the deposited data

Results flagged for a closer look

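Reads were also counted on genes that overlap Rb1 and Rbl2 and lie outside the comparisons above. Over Rb1, Gm17233 had 8 expected counts in replicate 1 and 41 in replicate 2, Lpar6 had 91 and 72, and Rcbtb2 had 326 and 607. Over Rbl2, Aktip had 97 and 68. Lpar6, Rcbtb2 and Aktip lie on the opposite strand from the gene they overlap and Gm17233 on the same strand. These values exceed the 3 counts that a count of 0 allows, and their part in the levels of Rb1 and Rbl2 was not tested.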

How the results depend on the processing

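With 2 libraries of 1 group, 1 library decides each mean, and no result has a test. Rescaling TPM over protein-coding nuclear genes raised the median level of the 10 genes from 5.74 to 13.5 TPM and the CIP/KIP, INK4 and pocket protein sums from 10.7, 14.8 and 77.8 to 24.9, 34.7 and 180.7 TPM, while the posterior mean gave 14.5 for INK4. The 1 gene past 2-fold (Cdkn1a) became 2 with a pseudocount of 0.1 or a fold of 1.5 (with Rbl2), and 0 genes at a mean of at least 10 TPM or by the posterior mean, where Cdkn1a lay at 1.00. Over all genes, 1263 past 2-fold became 708 with TMM factors, 315 at a mean of at least 10 TPM and 3112 at 1.5-fold. Single libraries gave medians of 5.56 to 5.91 TPM, family sums of 10 to 11.36, 14.75 to 14.91 and 66.59 to 89.04 TPM, and 4 genes at 10 TPM. Over coding transcripts alone, chosen after seeing the data, 3 genes reached 10 TPM in both libraries. No paired analysis was possible because both libraries belong to 1 group.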
